A study of Mus musculus with 4 samples.

Results

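The cells described here are Dpp4/Pi16 interstitial adipose progenitors, a subset of the Pdgfra-expressing stromal cells of mouse gonadal white adipose tissue. They were chosen by transcript counts alone: at least 2 Pdgfra UMIs (unique molecular identifiers, which count captured transcripts) and at least 3 UMIs of Pi16 and Dpp4 together, with at most 1 Ptprc UMI, at most 2 of Upk3b and Msln together, at most 4 of Cxcl13 and under 10 of Mzb1. Of 14982 cells kept in all, 976 met this rule, and another 2634 met every part of it except the one on Pi16 and Dpp4. The latter are called the other Pdgfra cells. All cells came from 18-month-old male p16-CreERT2 mice that also carried a Rosa26 lox-stop-lox tdTomato reporter and had been given tamoxifen. The Cre recombinase is driven by the p16 (Cdkn2a) promoter and not limited to a cell type, so tdTomato marks cells of any type in which that promoter was active while tamoxifen was present, and the mark stays after the promoter falls silent. The tissue was digested with Liberase, stained for CD31 and CD45 and sorted, and a 10x Genomics 3′ library was made for each of the 4 combinations of CD45 (- or +) and tdTomato (Tom+ or Tom-) that the labels give. The protocol's own list of sorted fractions names CD45- Tom- in 2 places and CD45+ Tom- in none, so the CD45+ Tom- library rests on its group label alone. How many mice went into a library is not given in the sources used here. With 1 library a group there were no replicates, so no test was made, every difference is one between libraries or between cells of 1 library, and all intervals are exact 95% intervals that cover counting error only.

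Interstitial progenitors lie in the connective tissue sheath that surrounds and divides the fat depot, and they are known as multipotent cells that can give rise to committed preadipocytes, which in turn become adipocytes. Dpp4 encodes a membrane-bound peptidase and Pi16 a secreted peptidase inhibitor. Both are used as surface or transcript markers of this state, together with Cd55, Sema3c, Anxa3, Cd248 and Ly6c1. As such cells commit to the adipocyte lineage they are known to lose these transcripts and to gain Icam1, Fabp4, Lpl and Pparg. The study itself reads Dpp4 differently in this depot. It found Dpp4 and Ly6c1 in the same cells and proposes that Dpp4-positive cells may be fibro-inflammatory progenitors. Its culture work used Dpp4-negative cells, since TGF-β raised a myofibroblast marker in the Dpp4-positive ones only. Which of these identities applies to the cells described here was not tested.

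The libraries differed in how well they could show these cells. Series of 4 values have the libraries labelled CD45- first and, within each CD45 label, Tom+ before Tom-. In that order the files held 7815, 11255, 3429 and 11068 barcodes, of which 4145, 4038, 1981 and 4818 were kept, and 53, 409, 18 and 496 were interstitial progenitors. Leukocytes and stroma were both found under each CD45 label. Both libraries labelled CD45+ held Pdgfra cells, and both labelled CD45- held over 1000 cells with at least 2 Ptprc or 10 Mzb1 UMIs, so each library is referred to by its label only. The 2 Tom- libraries shared 4394 barcodes, and 269 of the 409 and 284 of the 496 interstitial progenitors had a barcode that also occurred in the other Tom- library, where it carried a median of 744 and 660.5 UMIs against 31201 and 35041.5 in the cell's own library. No barcode was an interstitial progenitor in 2 libraries. The smallest group, the 18 cells labelled CD45+ Tom+, often owed a gene's count to 1 cell, and values that rest on it are marked.

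Interstitial progenitors made up 19.9% (interval 15.2 to 25.1), 26.3% (24.1 to 28.5), 14.4% (8.76 to 21.8) and 29.9% (27.7 to 32.1) of the Pdgfra cells in the 4 libraries. The share was higher in the Tom- library of each pair. Without the barcodes found in any other library the shares were 18.0%, 18.3%, 14.8% and 21.4%, which left almost no gap in the CD45- pair. They had a median of 26088, 26957, 28187 and 29124.5 UMIs, more than the 21234.5, 20502, 22132 and 21792 of the other Pdgfra cells. With the threshold set instead at 1 Pi16 or Dpp4 UMI per 10000, which takes depth into account, the shares were 21%, 28.0%, 18.4% and 29.9%. The median mitochondrial share was between 2.72% and 2.81% in interstitial progenitors and between 2.74% and 2.97% in the other Pdgfra cells.

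**Figure D1:**
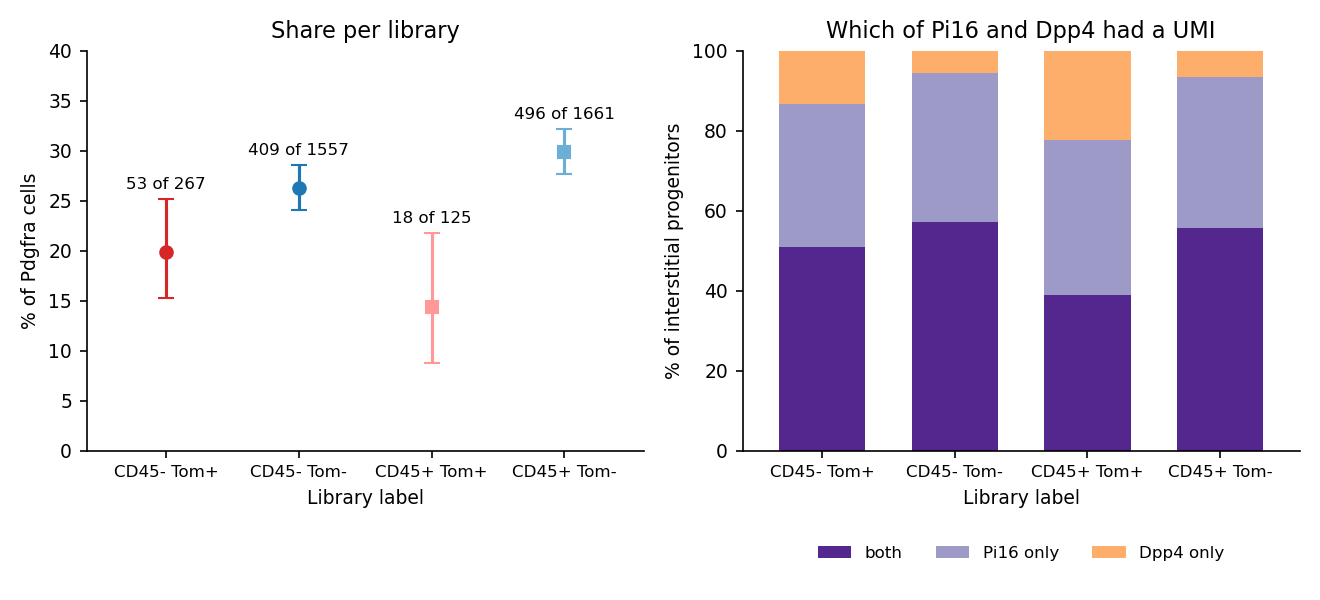
Left, interstitial progenitors as a percentage of the Pdgfra cells of each library, with exact binomial intervals and the numbers of cells. Right, the percentage of them in which Pi16 and Dpp4, Pi16 alone or Dpp4 alone had a UMI; the class with both was the largest in 3 libraries and equalled the Pi16-only class, with 7 cells each, in the library labelled CD45+ Tom+.

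Pi16 and Dpp4 chose the cells, so their levels are given as a description. Pi16 had 345, 504, 254 and 454 CPM (the UMIs of a gene divided by all UMIs of the same cells and scaled to a fixed total) in interstitial progenitors and between 5.16 and 12.2 CPM in the other Pdgfra cells. Dpp4 had 106, 110, 81.1 and 112 CPM against 4.96 to 9.51 CPM. The threshold of 3 UMIs left many cells close to it. In the library labelled CD45- Tom-, 127 cells had 2 UMIs of the pair, just outside the rule, and 64 cells had 3, just inside it, and the library labelled CD45+ Tom- held 102 and 96 such cells. The sum of 24 other genes known from interstitial progenitors was higher inside the threshold in the former library and lower in the latter. The 24 genes summed to 5969 (5883 to 6056) and 6308 (6193 to 6424) CPM in the former library and to 5977 (5879 to 6077) and 5625 (5535 to 5716) CPM in the latter. Single genes could differ from the sum. Sema3c had 24.2 and 19.2 CPM in the former library and 13.6 and 18.9 CPM in the latter.

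The gene lists were chosen with earlier results of these data known. In 3 libraries the known marker genes that the rule did not use were highest in the cells with the most Pi16 and Dpp4. The exception was the library labelled CD45+ Tom+, with 6844 CPM of the 24 interstitial genes in 5 cells with 5 to 9 UMIs and 6497 CPM in 8 cells with at least 10. Cells with at least 10 UMIs of the pair, 171 and 208 in the Tom- libraries, had 12718 and 12074 CPM of the 24 interstitial genes, against 7341 and 6983 CPM in cells with 5 to 9 UMIs and 4944 and 4834 CPM in cells with none. A list of 20 committed preadipocyte genes ran the other way, from 11514 and 11878 CPM in cells with none to 4135 and 4544 CPM in cells with at least 10. Sema3c, which encodes a secreted semaphorin, had 7.52 CPM at 0 UMIs, 19.2 CPM at 3, 59.5 CPM at 5 to 9 and 522 CPM at 10 or more in the library labelled CD45- Tom-. Depth moved with these groups, with a median of 19992 UMIs in the cells of that library with none of the pair, 27057 in those with 3 and 28305 in those with at least 10, and its part in the order was not tested.

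**Figure D2:**
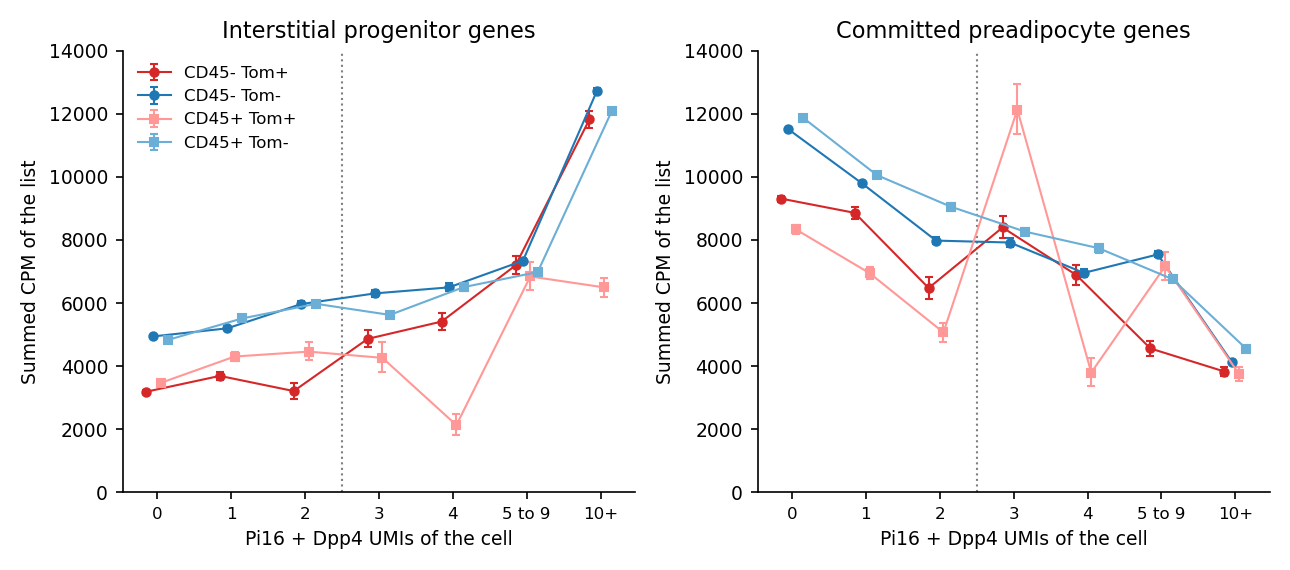
Summed CPM of 24 interstitial progenitor genes (left) and 20 committed preadipocyte genes (right) in Pdgfra cells grouped by their Pi16 and Dpp4 UMIs, 1 line per library, with exact Poisson intervals; the dotted line is the threshold of 3 UMIs. In the library labelled CD45+ Tom+ the groups with 3 and 4 UMIs held 3 and 2 cells.

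Set against the other Pdgfra cells of the same library, 24 of 5983 genes were more than 2-fold higher in interstitial progenitors in all 4 libraries (0.401% of the genes) and 7 were more than 2-fold lower (0.117%). The genes compared had a mean of at least 20 CPM over the groups compared, so a gene could reach it through the cells in which it was high. These are the cells the rule picked, so the list describes them and tests nothing. Of the 24 interstitial genes, 18 reached the mean of 20 CPM, 8 of them were past 2-fold higher and none past 2-fold lower, and 15 were above 0 in all 4 libraries. Among all 5983 genes 1104 were above 0 and 1127 below 0 in all 4. Their median log2 ratio was 1.43, 1.31, 0.86 and 1.29, beside 0.01, -0.01, -0.01 and -0.01 over all genes. The 8 were Sema3c, Ackr3, Anxa3, Smpd3, Ly6c1, Tmem100, Cd248 and Igfbp6.

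Sema3c (mm10, chr5:17574281-17730268, plus strand) had 152, 248, 97.4 and 238 CPM in interstitial progenitors and 18.0, 10.7, 26.2 and 9.19 CPM in the other Pdgfra cells. Every interstitial value lay above every other value. Here and for the genes below, the share of all 5983 genes with no overlap between the groups is not given. The log2 ratio of Sema3c was 3.08 (2.72 to 3.44), 4.54 (4.36 to 4.73), 1.89 (1.35 to 2.43) and 4.69 (4.51 to 4.88). Of its UMIs among the 18 cells labelled CD45+ Tom+, 74.1% came from 1 cell. With every cell of at least 5000 UMIs thinned to that number, 26.4%, 31.4%, 16.7% and 29.1% of interstitial progenitors had a Sema3c UMI. The shares were 7.58%, 4.30%, 7.55% and 3.39% of the other Pdgfra cells. Of leukocytes, taken as the background of free RNA, 0.672%, 3.00%, 0.906% and 2.25% had one, and their median depth was 22794.5, 14715, 20959 and 14634 UMIs. Cells with fewer than 5000 UMIs were left out here and wherever thinning is used. These were 0, 2, 0 and 2 interstitial progenitors, 3, 31, 1 and 16 other Pdgfra cells, and 215, 255, 118 and 286 leukocytes. Before thinning 50.9%, 51.3%, 38.9% and 49.0% of interstitial progenitors had a Sema3c UMI, so Sema3c was found in a part of them only.

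Ackr3 (chr1:90203980-90216751, plus strand), a scavenging receptor of the chemokine Cxcl12, had 425, 425, 204 and 381 CPM against 66.8, 87.9, 53.3 and 86.6 CPM, with log2 ratios of 2.67 (2.48 to 2.86), 2.28 (2.20 to 2.35), 1.94 (1.57 to 2.30) and 2.14 (2.07 to 2.21). Anxa3, an annexin, had 272, 324, 274 and 343 CPM against 73.8, 98.7, 70.7 and 102 CPM. The groups did not overlap for either gene. Ly6c1, a GPI-anchored surface protein, had 541, 506, 280 and 485 CPM against 102, 187, 131 and 198 CPM, and Cd248, the surface sialomucin endosialin, had log2 ratios of 1.35, 1.10, 1.02 and 1.11. After thinning, 79.2%, 79.1%, 72.2% and 76.3% of interstitial progenitors had a Cd248 UMI, against 40.6% to 55.4% of the other Pdgfra cells and 2.11% to 8.63% of leukocytes.

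Cd55 (chr1:130439027-130462744, minus strand), which protects cells from complement and is a common sorting marker of these progenitors, was past 2-fold in 3 libraries. It had 284, 352, 123 and 309 CPM against 60.3, 66.7, 75.7 and 49.3 CPM, with log2 ratios of 2.24, 2.40, 0.70 (0.28 to 1.10) and 2.65. The library labelled CD45+ Tom+, with 68 UMIs of Cd55, was the exception, and after thinning 16.7% of its 18 interstitial progenitors had a Cd55 UMI (3.58 to 41.4) against 28.3% of its other Pdgfra cells and 18.6% of its leukocytes. In the Tom- libraries the share was 53.1% and 49.8% against 22.0% and 19.8% of the other Pdgfra cells and 16.3% and 15.1% of leukocytes. Cd34, a sialomucin of progenitor cells, had log2 ratios of 1.51, 1.47, 0.57 and 1.55. Efhd1, a calcium-binding mitochondrial protein, was under the mean of 20 CPM, with 24.8, 44.2, 14.4 and 45.3 CPM against 0.397, 1.20, 2.28 and 2.5 CPM. Of its 8 UMIs in the library labelled CD45+ Tom+, 87.5% came from 1 cell.

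**Figure D3:**
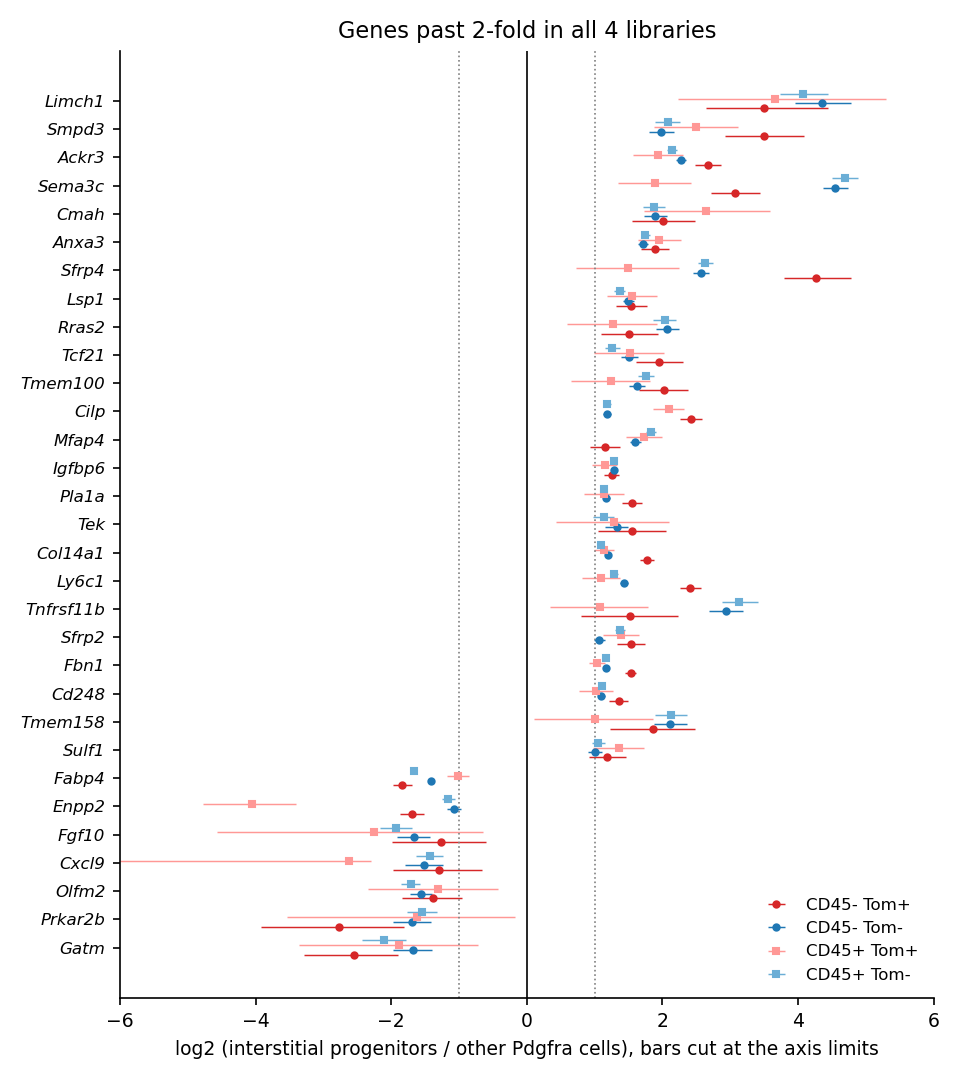
Log2 ratio of interstitial progenitors to the other Pdgfra cells of the same library for the 31 genes past 2-fold in all 4 libraries, with conditional exact intervals; dotted lines mark 2-fold. The Cxcl9 value of the library labelled CD45+ Tom+ is a bound, since its interstitial progenitors had 0 Cxcl9 UMIs. The 24 genes to the right are higher and the 7 to the left lower in interstitial progenitors.

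Extracellular matrix genes were described by 4 lists. Of 20 genes of elastic fibres and microfibrils, all 20 reached the mean of 20 CPM, and Fbn1 and Mfap4 were past 2-fold. In all 4 libraries 16 were above 0 and none below 0, beside 1104 above and 1127 below of all 5983 genes. Fbn1 (chr2:125300594-125507993, minus strand), the fibrillin that forms the microfibril backbone, had 1632, 1887, 1464 and 1844 CPM against 565, 836, 716 and 822 CPM, with log2 ratios of 1.53, 1.17, 1.03 and 1.17. Mfap5, which binds to it, had log2 ratios of 1.36, 0.94, 1.08 and 1.03, and elastin, Eln, had 1.42, 1.04, 0.65 and 0.94. Among 13 fibrillar collagen genes Col14a1, whose product coats collagen fibrils, was past 2-fold at 1057, 1388, 970 and 1277 CPM against 309, 609, 442 and 598 CPM. The main fibril collagens differed less, by 0.63, 0.54, 1.16 and 0.69 on the log2 scale for Col1a1 and 0.77, 0.54, 0.93 and 0.63 for Col3a1.

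Basement membrane genes did not move as a group, with 7 of 13 above 0 in all 4 libraries, 4 below 0 in all 4 and none past 2-fold. Of all 5983 genes, 1104 were above and 1127 below 0 in all 4. Col4a1, a basement membrane collagen, was lower in interstitial progenitors at log2 ratios of -0.35, -0.42, -0.54 and -0.46, whereas Nid1, which links laminin to collagen IV, was higher at 0.78, 0.47, 0.82 and 0.42. Of 11 hyaluronan and proteoglycan genes none was past 2-fold, and Vcan, the large proteoglycan versican, had 282, 336, 238 and 308 CPM against 102, 174, 136 and 162 CPM. Cilp, a matrix protein that binds TGF-β1, was past 2-fold with 501, 482, 543 and 485 CPM against 93.6, 213, 127 and 213 CPM.

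Among 13 genes of the Wnt pathway that reached the mean of 20 CPM, out of 24 listed, 2 secreted frizzled-related proteins, which bind Wnt ligands, were past 2-fold higher and none was past 2-fold lower. Sfrp4 had 157, 198, 45.1 and 184 CPM against 8.13, 33.3, 16.0 and 29.8 CPM, with log2 ratios of 4.27, 2.57, 1.5 and 2.63. At a threshold of 10 UMIs its lowest value was -0.97. Sfrp2 had 258, 221, 339 and 261 CPM against 88.8, 105, 129 and 100 CPM. Of the ligands, Wnt4 had 105, 85.0, 373 and 77.4 CPM against 189, 57.8, 200 and 49.0 CPM, lower in the library labelled CD45- Tom+ and higher in the others. Wnt10b, an inhibitor of adipogenesis, had 7, 75, 0 and 95 UMIs in interstitial progenitors, and in the Tom- libraries its 6.61 and 6.42 CPM stood against 0.120 and 0.149 CPM in the other Pdgfra cells. Of the 13, 5 were above 0 and 4 below 0 in all 4 libraries, beside 1104 above and 1127 below of all 5983 genes. The 4 below 0 included the receptor Fzd1, with log2 ratios of -0.12, -0.12, -0.20 and -0.12, and the transcription factor Tcf7l2, with -0.28, -0.43, -0.42 and -0.65.

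No gene of the 21 compared in the TGF-β and BMP pathway, out of 29 listed, was past 2-fold in all 4 libraries in either direction, and the list's median log2 ratio was 0.20, 0.04, 0.05 and 0.03. The receptor Tgfbr2 came close, with 378, 465, 325 and 427 CPM against 174, 225, 172 and 218 CPM and log2 ratios of 1.12 (0.96 to 1.27), 1.05 (1.0 to 1.10), 0.92 (0.66 to 1.17) and 0.97 (0.92 to 1.02). Its 4 interstitial values all lay above the 4 others. The share of all 5983 genes for which this holds is not given, and 1104 of them were above 0 in all 4 libraries. The partner receptor Tgfbr1 differed by 0.46, 0.28, 0.80 and 0.25, and the ligand Tgfb1 by 0.06, -0.08, -0.54 and -0.03. Inhbb, an activin subunit, had log2 ratios of 1.84, 1.36, 0.05 and 1.27, so its call failed in the library labelled CD45+ Tom+ alone.

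Other genes past 2-fold higher were Tcf21, a basic helix-loop-helix transcription factor of visceral mesenchyme, with 105, 102, 95.6 and 108 CPM against 27.2, 35.8, 33.5 and 45.1 CPM, and Pla1a, a phospholipase, with log2 ratios of 1.55, 1.17, 1.14 and 1.14. Tek, the angiopoietin receptor known mostly from endothelium, had 44.3, 53.8, 36.1 and 51.4 CPM against 15.1, 21.5, 14.8 and 23.4 CPM. The endothelial marker Pecam1 was at 19.4, 3.26, 37.9 and 1.22 CPM in the same cells, with all 21 UMIs of the third library from 1 cell, and the part of endothelial RNA in the Tek value was not tested. Lsp1, also a leukocyte gene, had log2 ratios of 1.54, 1.49, 1.55 and 1.37. Limch1, Cmah, Rras2, Tnfrsf11b, Tmem158 and Sulf1 completed the list and are named after their values were seen. Tmem158 and Tmem100 each had a library below 0 when Pi16 and Dpp4 were both required, and Tnfrsf11b had one at a threshold of 10 UMIs. Limch1, which encodes a regulator of non-muscle myosin, had 33.5, 45.7, 28.9 and 46.0 CPM against 2.97, 2.24, 2.28 and 2.73 CPM. All its UMIs in interstitial progenitors of the library labelled CD45+ Tom+ came from 1 cell. Limch1 reached the mean of 20 CPM only through its interstitial values.

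The presence of Tcf21 led to a search of the promoters, taken as 250 bases before to 50 bases after each RefSeq start (GRCm38.p6), for the E-box CAGCTG, a palindrome that such factors bind. Promoters were found for 12 of the 24 higher genes. The letters occurred in 6 of their 16 promoters (37.5%; in Cilp, Cmah, Fbn1 and Ly6c1), against 16.3% of 32851 promoters of the same length, and in that of Pi16 but not of Dpp4. A gene with several RefSeq starts was counted at each of them, so the 16 promoters come from 12 genes and the 32851 from 27025. No share per gene was taken, and the difference was not tested. The matches of Pi16, Cilp and Ly6c1 and the one nearest the start of Cmah are shown with 12 bases on either side, 5′ to 3′ on the gene's strand and with the E-box in capitals, so that their flanks and distance from the start can be compared.
Pi16, chr17:29318893-29318922, plus strand: agcacagcgctgCAGCTGcttctggaattg
Cilp, chr9:65265129-65265158, plus strand: gggctgagccacCAGCTGtgctatataaga
Cmah, chr13:24415086-24415115, plus strand: ccatttacatatCAGCTGgtggtttcagta
Ly6c1, chr15:75048855-75048884, minus strand: tcttcaggatgcCAGCTGggaggagctgaa
The E-box was centred 36, 21 and 32 bases before the start in Cilp, Cmah and Ly6c1 and 26 bases after it in Pi16. For Cmah this is a RefSeq start inside the gene, which spans chr13:24327404-24477377. The Pi16 start also lies inside its gene, which spans chr17:29317680-29330593. A Cmah match not shown, at chr13:24327164-24327193, was centred 225 bases before a RefSeq start. Of the other motifs searched on both strands, the GC box GGGCGG was in 31.2% of the 16 promoters and 35.7% of all, and neither GGAATG nor TGANTCA was in any of the 16, against 14.7% and 7.81% of all. These matches describe the letters of a short window, and no binding was measured.

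Of 16 committed preadipocyte genes compared, out of 20 listed, 2 were past 2-fold lower, Fabp4 and Fgf10, none past 2-fold higher, and 13 were below 0 in all 4 libraries, beside 1127 of all 5983 genes, with median log2 ratios of -0.61, -0.90, -0.69 and -0.95. Fabp4 (chr3:10204088-10208576, minus strand), the fatty acid carrier of adipocytes, had 308, 398, 622 and 383 CPM against 1103, 1063, 1261 and 1211 CPM, with log2 ratios of -1.84 (-1.98 to -1.70), -1.42 (-1.46 to -1.37), -1.02 (-1.18 to -0.86) and -1.66 (-1.70 to -1.62). Every interstitial value was below every other value, although 64.3% of the Fabp4 UMIs of the library labelled CD45+ Tom+ came from 1 cell. Fgf10 (chr13:118669791-118792115, plus strand), a growth factor that acts on preadipocytes, had 14.1, 13.7, 5.41 and 12.0 CPM against 33.7, 43.7, 25.9 and 45.8 CPM. Its 5.41 CPM in the library labelled CD45+ Tom+ was 3 UMIs, found in 11.1% of the 18 cells.

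Lpl, the lipoprotein lipase, had log2 ratios of -1.21, -0.93, -0.38 and -0.94. Pparg, the main transcription factor of adipogenesis, had 8.72, 14.9, 5.41 and 12.8 CPM against 22.4, 25.4, 17.5 and 28.6 CPM, where 5.41 CPM was again 3 UMIs. A wider adipogenic and lipid list, with 15 of 29 genes compared, which shares Fabp4 and others with the committed list, had 1 past 2-fold lower, 6 below 0 in all 4 libraries and median log2 ratios of -0.28, -0.37, -0.38 and -0.35. Enpp2, which makes lysophosphatidic acid, had log2 ratios of -1.69, -1.07, -4.05 and -1.16, and Fst, the activin antagonist follistatin, of -1.64, -1.34, -1.16 and -0.88. Gatm, Prkar2b, Olfm2 and Cxcl9 were also past 2-fold lower, of which Olfm2 meets the rule for named genes and the rest are named after their values were seen. Gatm had a library above 0 when Pi16 and Dpp4 were both required. No mural cell gene was past 2-fold. All 5 compared, of 10 listed, were below 0 in the 4 libraries, beside 1127 of all 5983 genes. Des, an intermediate filament protein of these cells, had log2 ratios of -0.85, -0.73, -0.95 and -0.61.

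Other lists gave no gene past 2-fold in all 4 libraries: senescence (15 compared), complement and chemokine (16), inflammatory progenitor (19), CD142 regulatory progenitor (10) and dissociation stress (15). A growth factor and receptor list of 15 had Fgf10 alone, lower, and a semaphorin and axon guidance list of 14 had Sema3c alone, higher. Cell classes known by other pairs of genes overlapped with interstitial progenitors. At least 5 UMIs of Ptx3 and Il6 together were found in 56.6%, 53.1%, 55.6% and 51.2% of interstitial progenitors and in 33.2%, 44.8%, 22.4% and 47.4% of the other Pdgfra cells. At least 3 UMIs of Fgf10, Enpp6 and Mrap were found in 7.55%, 11.2%, 22.2% and 15.1% against 22.4%, 26.2%, 14.0% and 27.6%, and the interval of the third interstitial share, from 4 of 18 cells, ran from 6.41% to 47.6%. These shares were not thinned, and interstitial progenitors were the deeper cells.

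Interstitial progenitors were also split by which gene of the pair was detected, a description that uses the same counts as the rule. Of the 976, 544 (55.7%) had UMIs of both Pi16 and Dpp4, 365 (37.4%) of Pi16 only and 67 (6.86%) of Dpp4 only. The classes differed in depth, with Pi16-only cells deepest and Dpp4-only cells shallowest in both Tom- libraries. In these libraries, which held 234 and 276 cells with both, 152 and 187 with Pi16 only and 23 and 33 with Dpp4 only, the median was 26306.5 and 28239, 28625.5 and 31257, and 22668 and 25939 UMIs. The classes are compared in these 2 libraries only, and the part of depth, or of the number of Pi16 and Dpp4 UMIs, in their differences was not tested. The 24 interstitial genes, which do not include Pi16 or Dpp4, summed to 11653 (11569 to 11738) and 11137 (11064 to 11209) CPM in cells with both, 6618 and 6199 CPM with Pi16 only, and 6070 and 6100 CPM with Dpp4 only. For comparison, cells with neither had 4944 and 4834 CPM.

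Between cells with both and cells with Pi16 only, 49 of 5965 genes were past 2-fold higher in both Tom- libraries (0.821%) and 16 lower (0.268%). Of 20 interstitial genes compared, 11 were higher and none lower: Cd55, Sema3c, Anxa3, Creb5, Ackr3, Pcsk6, Efhd1, Opcml, Smpd3, Emilin2 and Cd34, with a median log2 ratio over the 20 of 1.19 and 1.18. The number higher was also 11 without likely doublets and without the barcodes that occur in any other library. Whether they were the same 11 genes was not checked. Sema3c had 425 and 415 CPM in cells with both, 25.5 and 17.9 CPM with Pi16 only, and 20.1 and 48.0 CPM with Dpp4 only. Cd55 had 539 and 475, then 114 and 112, then 126 and 81.8 CPM. In the other Pdgfra cells of the same libraries Sema3c had 10.7 and 9.19 CPM and Cd55 66.7 and 49.3 CPM.

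Some transcripts were higher with Pi16 only. Igf1, insulin-like growth factor 1, had 385 and 386 CPM in cells with both against 849 and 774 CPM with Pi16 only, and Apoe, apolipoprotein E, 763 and 873 against 1576 and 1865 CPM. Cilp was near equal, at 492 and 494 against 528 and 535 CPM, but had 33.6 and 96.0 CPM in cells with Dpp4 only. Genes past 2-fold between both and Pi16 only outside the interstitial list included Sfrp4, Sema3d and Tek, higher, and Wnt4, Clec11a and Mylk, lower.

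Cells with Dpp4 only differed from those with Pi16 only by 49 of 5964 genes higher (0.822%) and 45 lower (0.755%). Of the interstitial genes, Anxa3, Pcsk6 and Smpd3 were higher and Tmem100 lower. Anxa3 had 306 and 292 CPM with Dpp4 only, 108 and 93.2 CPM with Pi16 only and 477 and 526 CPM with both, so the cells with Dpp4 only lay between the others. Tmem100, a membrane protein downstream of BMP signalling, had 6.71 and 29.5 CPM with Dpp4 only against 81.8 and 65.2 CPM. Fabp4 and Fabp5 were higher with Dpp4 only, Fabp4 at 1032 and 848 CPM against 471 and 387 CPM. Clec11a, Gdf10 and Mgp of the CD142 regulatory list, Il33, Lif and Has2 of the inflammatory list, Mfap4, Ltbp2 and Col1a1 of the matrix lists, and Col15a1, Bmper, Cxcl14, Igf1, Sfrp1, Timp1, Tagln and Ephb2 were lower.

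These values rest on 23 and 33 cells. Mesothelial cells, which line the depot, are also known to express Dpp4. Their 12 listed genes summed to 396 (347 to 450) and 415 (374 to 459) CPM in cells with Dpp4 only, against 290 and 270 CPM with Pi16 only and 291 and 278 CPM with both. Lrrn4, a defining mesothelial gene, had 35.3 and 45.8 CPM with Dpp4 only, where 61.9% of its UMIs in the first library came from 1 cell and 8 cells of the second had one. The part of mesothelial RNA in the Dpp4-only values was not tested. Without the barcodes that occur in any other library 38 genes were higher and 73 lower.

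**Figure D4:**
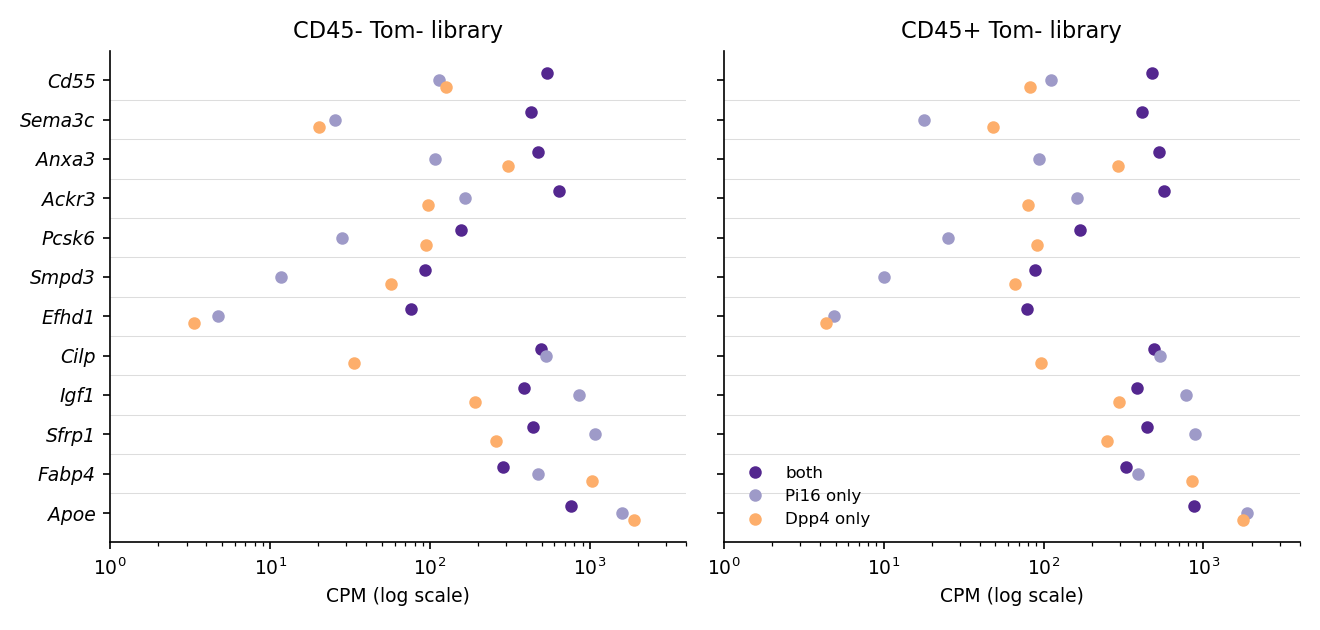
CPM, on a log scale and without intervals, of 12 genes in interstitial progenitors with UMIs of both Pi16 and Dpp4, of Pi16 only and of Dpp4 only, in the 2 Tom- libraries. The first 7 genes, of the interstitial list, are highest in cells with both in each library, Cilp is lowest with Dpp4 only, and Fabp4 is highest with Dpp4 only; genes were chosen after their values were seen.

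Tom+ and Tom- interstitial progenitors were compared within the CD45- pair (53 against 409 cells) and within the CD45+ pair (18 against 496), which asks how cells of this kind with and without the mark of p16 promoter activity differ. The tdTomato transcript had 919 and 716 CPM in the Tom+ libraries against 9.61 and 10.2 CPM in the Tom- libraries, and after thinning was found in 69.8% and 66.7% of interstitial progenitors against 4.42% and 5.26%. The labels thus held for the reporter. Leukocytes of the Tom+ libraries, sorted by the same label, had 673 and 677 CPM of it. Cdkn2a itself was at 7.38 against 5.90 CPM and 9.02 against 9.60 CPM, with 11 and 5 UMIs in the Tom+ libraries and log2 ratios of 0.32 (-0.75 to 1.25) and -0.09 (-1.73 to 1.17), so no difference was detectable at this depth. After thinning, 5.66% (1.18 to 15.7, 3 of 53 cells) and 5.56% (0.141 to 27.3, 1 of 18) of Tom+ interstitial progenitors had a Cdkn2a UMI. The Tom- shares were 2.70% and 2.83%, inside both of these intervals. Leukocytes of the 4 libraries had 2.16%, 1.93%, 2.34% and 1.41%.

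Of 5915 genes, 19 were past 2-fold higher in Tom+ interstitial progenitors in both pairs (0.321%) and 2 lower (0.0338%). In the other Pdgfra cells 117 of 6090 were higher (1.92%) and 3 lower (0.0493%). Of the 19, 11 had more than 5 times the CPM in leukocytes of a Tom+ library, among them Igkc, Ighm, Jchain and Mzb1 of plasma cells. The whole plasma cell list summed to 19594 and 9857 CPM in Tom+ interstitial progenitors against 1314 and 1186 CPM in Tom-, with 5 of 7 compared genes higher, and to 308853 and 321258 CPM in leukocytes of the Tom+ libraries. The 12 endothelial genes summed to 133 against 96.1 CPM and 343 against 74.6 CPM, with 0 and 3 of them at 0 in the Tom+ libraries, and the 12 mesothelial genes to 335 against 296 CPM and 433 against 283 CPM. None of the 2 endothelial and 3 mesothelial genes compared was past 2-fold in both pairs, whereas 2 of 4 mesothelial genes were in the other Pdgfra cells, and the part of RNA of these cell types in the 19 was not tested. Of the other 8, tdTomato is the reporter, and Aqp1, Lrg1, Hbegf, Lgals7, Rgcc, Myrf and Clu remain. Of these, Aqp1, Lrg1, Hbegf, Rgcc, Myrf and Clu had a pair below 0 under at least 1 other setting. In the 2 Tom+ libraries 1 cell gave 59.5% and 100% of the Aqp1 UMIs, 82.3% and 83.3% of those of Lrg1 and 76.1% and 73.7% of those of Hbegf.

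Clu, the secreted chaperone clusterin, had 264 against 59.6 CPM and 328 against 52.1 CPM, with log2 ratios of 2.15 (1.96 to 2.33) and 2.66 (2.41 to 2.89). The other Pdgfra cells had 2.24 and 2.44 in the same comparison, and 30.5% and 47.3% of the UMIs in Tom+ interstitial progenitors came from 1 cell. The lower of its values was -0.91 at a threshold of 5 UMIs and -3.22 at 10 UMIs. Csrp2, a LIM-domain protein, had 251 against 129 and 339 against 135 CPM, and Nfkbia, the inhibitor of NF-κB, 681 against 478 and 858 against 502 CPM. Their log2 ratios were 0.96 and 1.33 for Csrp2 and 0.51 and 0.77 for Nfkbia, which in the other Pdgfra cells had -0.08 and -0.01. Ncam1, a neural cell adhesion molecule, had ratios of 0.96 and 2.5, beside 1.80 and 2.87 in the other Pdgfra cells. With Pi16 and Dpp4 both required, the lower value was -0.11 for Nfkbia and -0.63 for Ncam1.

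Lower in Tom+ were Lif, a cytokine of the interleukin-6 family, with 7.38 against 42.7 CPM and 9.02 against 32.5 CPM, and Sbsn, with 32.9 against 72.8 and 27.0 against 63.6 CPM. The log2 ratios were -2.53 (-3.54 to -1.68) and -1.85 (-3.48 to -0.62) for Lif, which in the other Pdgfra cells had -0.13 and -0.42, and -1.15 and -1.23 for Sbsn, which had -0.03 and 0.06 there. Lif had 11 and 5 UMIs in the Tom+ libraries, and neither gene was past 2-fold in both pairs without the barcodes found in any other library. Sema3c had log2 ratios of -0.71 (-0.91 to -0.51) and -1.29 (-1.70 to -0.90) in interstitial progenitors and 0.76 and 1.51 in the other Pdgfra cells. The difference between these was not tested, and the second interstitial value rests on the library in which 1 cell gave 74.1% of the UMIs. None of 21 interstitial genes was past 2-fold in both pairs, with median log2 ratios of -0.25 and -0.64, beside -0.51 and -0.49 in the other Pdgfra cells. None of 20 TGF-β and BMP genes, 13 fibrillar collagen genes or 15 senescence genes was past 2-fold in both pairs.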

How the data were processed

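The authors ran Cell Ranger 3.0.2 with the mm10 genome, and the deposited matrices hold raw UMI counts per gene and barcode of each 10x Genomics library. Of 31054 features 30934 were found in GENCODE vM21, which gave positions. Barcodes were kept if they had more than 1000 but fewer than 7000 genes and a mitochondrial share of counts below 8%. The members, gene lists and comparisons were chosen with earlier results of these data known. Counts were summed over the cells of a library, divided by all summed counts (CPM) and compared as log2 ratios, with exact Poisson, conditional and binomial (Clopper-Pearson) 95% intervals (numpy 2.4.6, scipy 1.17.1, python 3.11.15). Genes were compared at a mean of at least 20 CPM, and a count of 0 was set to a floor of 3 counts. The study tested cells as replicates, which was not done here.

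Any gene of the lists could be named. Outside them, the 15 highest and 10 lowest ratios against the other Pdgfra cells and the 10 highest and 10 lowest between Tom+ and Tom- were named, by the value nearest 0, if their mean was 50 CPM or more and their sign the same throughout. For the latter, genes over 5 times higher in leukocytes were left out. Leukocytes were cells with at least 2 Ptprc or 10 Mzb1 UMIs. Doublets stayed in, and were left out as an alternative (scanpy 1.11.5, its highest scores at 0.8% per 1000 barcodes). TMM factors came from edgeR 4.0.16. The code was tested on simulated data.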

Additional observations from a re-analysis of the deposited data

Results flagged for a closer look

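For 6 genes of the lists the Tom+ minus Tom- log2 ratio of interstitial progenitors had opposite signs in the CD45- and the CD45+ pair, with both values at least 0.5 from 0 and both intervals clear of it. These differences were not tested, since each group was 1 library. Hsd11b1, which regenerates active glucocorticoid, had 0.54 in the CD45- pair and -0.65 in the CD45+ pair. Uchl1, a ubiquitin hydrolase, had 1.20 and -1.35, with 68.3% and 66.7% of its Tom+ UMIs from 1 cell. The neutrophil-attracting chemokine Cxcl5 had 0.87 and -3.92, with 86.3% of the UMIs of the first Tom+ library from 1 cell and 1 UMI in the second, and its relative Cxcl2 had 1.08 and -1.97. Clec11a, a growth factor of the osteogenic lineage, had -0.65 and 0.59, and the ligand Tgfb3 had -0.66 and 1.45.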

How the results depend on the processing

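Results were recomputed under 15 other settings, 4 of them (the threshold of 10 UMIs, all barcodes of other libraries, the top cell of each gene and the library labelled CD45+ Tom+ left out) chosen after the data were seen, as were both settings tried on the Pi16 and Dpp4 classes (doublets or barcodes of other libraries left out). The 78 named genes gave 1158 values, of which 38 changed sign in at least 1 library. The 1158 include 78 values with no filter on low values and 78 without the library labelled CD45+ Tom+. Neither setting alters the counts of the libraries it uses, so no sign could change there. The shares of Pdgfra cells, in the usual order, were 13.1%, 18.7% and, in the library labelled CD45+ Tom-, 20.9% at 5 UMIs, 8.61%, 11.0%, 6.4% and 12.5% at 10 UMIs, 11.2%, 16.2%, 7.2% and 18.0% with Pi16 and Dpp4 both detected, and 18.3% and 21.4% in the Tom- libraries without barcodes of any other library. The 24 genes higher than in the other Pdgfra cells became 38 with both detected, 36 at 5 UMIs, 40 at 10 UMIs, 13 with the top cell of each gene left out, 54 with no filter on low values and 37 without the library labelled CD45+ Tom+, which included all 24. The 7 lower became 18 at 5 UMIs, 12 with both detected, 11 at 1 UMI per 10000, 13 without doublets, 26 at 10 UMIs, 3 with cells thinned to 5000 UMIs, 26 with no filter and 12 without that library.

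The 19 genes higher in Tom+ became 35 with cells of over 500 genes and under 20% mitochondrial UMIs, 13 at 5 UMIs, 13 at 1 UMI per 10000, 12 without doublets, 36 thinned, 10 without the top cell and 265 with no filter. The 2 lower became 5 at 5 UMIs, 5 with both detected, 9 without barcodes of any other library, 24 at 10 UMIs, 19 thinned, 8 without the top cell, 50 with no filter and 9 without the library labelled CD45+ Tom+. Without barcodes of any other library, 28 genes were lower in cells with both than with Pi16 only, and 73 lower with Dpp4 only than with Pi16 only. With no filter on low values, 11560 genes were compared against the other Pdgfra cells and 11759 between Tom+ and Tom-. With the filter these numbers were 5983 and 5915. The cause of the changes in the counts of genes past 2-fold was not tested.

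Genes past 2-fold turned over as follows, by the log2 value of the library or pair that went farthest the other way. Against the other Pdgfra cells, Gatm had 0.74, Tmem100 -0.17 and Tmem158 -0.31 with both detected, Sfrp4 -0.97 and Tnfrsf11b -0.48 at 10 UMIs, and Tmem158 -0.51 without the top cell. Between Tom+ and Tom-, 5 UMIs gave Clu -0.91, Hbegf -0.30, Lgals3 -0.66 and Lrg1 -0.67, and 10 UMIs gave Clu -3.22, Lgals3 -0.73 and Myrf -0.19. Both detected gave Hbegf -0.00896, and 1 UMI per 10000 gave Aqp1 -0.0521, Hbegf -0.0807 and Lrg1 -0.83. Without doublets Hbegf had -0.23 and Lrg1 -0.73, without barcodes of any other library Aqp1 -1.15, Hbegf -0.28 and Lrg1 -0.66, and without the top cell Lrg1 -0.70 and Rgcc -0.39. No paired analysis was possible because each group was 1 library. Depth limits most the library labelled CD45+ Tom+, where 3 UMIs in its 18 cells amount to 5.41 CPM.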

Other observations

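Several secreted factors outside the genes called past 2-fold were higher in interstitial progenitors than in the other Pdgfra cells of each library. Whole lists went both ways. Of 15 growth factor and receptor genes compared, 4 were above 0 and 6 below 0 in all 4 libraries. Of 16 complement and chemokine genes, 3 were above and 4 below, beside 1104 above and 1127 below of all 5983 genes. Fgf2, a fibroblast growth factor, had 44.9, 62.2, 45.1 and 53.4 CPM against 20.8, 26.4, 24.3 and 21.1 CPM, and the alarmin Il33 had 120, 150, 215 and 149 CPM against 54.7, 76.6, 65.8 and 83.1 CPM. In both cases the groups did not overlap, and the share of all genes without overlap is not given. Fgf18 had 14.1, 18.0, 10.8 and 19.3 CPM against 3.37, 6.19, 8.75 and 7.66 CPM, and Wnt2 4.02, 8.99, 16.2 and 8.72 CPM against 1.78, 2.0, 1.14 and 2.28 CPM, on 6, 102, 9 and 129 UMIs. Wnt2 was past 2-fold in all 4 libraries but under the mean of 20 CPM.

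Insulin-like growth factor binding proteins went in unlike directions. Igfbp6 was past 2-fold higher, with 732, 809, 651 and 789 CPM against 307, 330, 294 and 324 CPM, and Igfbp4 had log2 ratios of 0.81, 0.39, 1.04 and 0.41. Igfbp5 differed by Tom label, with 0.31 and -0.18 in the Tom+ libraries and 1.65 and 1.95 in the Tom- libraries, where its level in the other Pdgfra cells was 62.9 and 35.7 CPM against 131 and 153 CPM in the Tom+ libraries. In the library labelled CD45- Tom+, 70.7% of its UMIs in interstitial progenitors came from 1 cell. Igfbp3 had log2 ratios of -1.55, -1.44, -0.11 and -1.87.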
